A study of Homo sapiens with 3 samples.

Results

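MV-4-11 cells treated with FL-Fc-DM1 at 1.5 nM for 1 day were set against untreated MV-4-11 cells kept in culture for the same 1 day. MV-4-11 is a human myelomonocytic leukaemia line with a KMT2A fusion and an activating internal duplication in the receptor kinase gene FLT3. FL-Fc-DM1 carries FLT3 ligand, an antibody Fc part and the maytansinoid DM1. The comparison used 2 of the 3 libraries of the series and 11322 of the 20332 genes in the deposited table, those with a mean of at least 1 CPM (counts per 1000000 counts) over the 3 libraries. All cells were grown in IMDM with serum, and the labels give their genotype as wild type. The remaining library, from cells treated at 0.5 nM for 1 day, is set beside the comparison throughout. It shares the untreated library with it. None of the 3 libraries came from cells given free DM1, the unloaded ligand-Fc protein or a vehicle.

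Levels below are in CPM and are listed in the order untreated, 0.5 nM and 1.5 nM. A ratio is the log2 ratio of the 1.5 nM level to the untreated level, so 1 means 2-fold higher and 0.5 means 1.4-fold higher. Brackets hold the exact 95% interval of that ratio from the 2 counts, which covers counting error and nothing else. Each group had 1 library, so no difference could be tested against a spread between cultures, and every ratio compares these libraries. In RNA from a whole culture, a smaller share of cells of one kind and less RNA per cell cannot be told apart. A gene whose estimated count was not whole in some library is called uncertain, and 2510 (22.2%) of the genes analysed were.

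The untreated library held 22329953 estimated counts and the 1.5 nM library 16864857, and the 10 genes with the most counts took 6.63% and 6.72% of them. Mitochondrially encoded genes took 5.36% and 5.31%. The treated columns of the table carry numbers and no doses, and the higher number was read as the higher dose; were it the lower one, the values for the doses would change places. Markers of the labelled line were present: 13 of 14 identity markers were measured, with LYZ at 2022, 1861 and 2510 CPM and CD4 at 269, 266 and 323 CPM, while CD34 had at most 2 counts in any library. Of 16 lymphocyte markers 1 was measured and 7 had no count in any library. Of 20 epithelial markers 7 were measured, and of 14 fibroblast markers 2. Of 16 neural and embryonic kidney line markers 5 were measured, 3 of them at least 2-fold lower at 1.5 nM. The last paragraph of the Results returns to these, and RNA of another cell line was not tested for. Over all genes deposited, 50 with at least 10 counts in both other libraries had at most 2 in the 1.5 nM library, and 6 of them were among the genes analysed.

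DM1 binds tubulin and stops microtubules from growing, which holds dividing cells in mitosis. Cells also sense free tubulin: when it accumulates, the factor TTC5 recognises nascent tubulin chains at the ribosome and the messenger RNA is degraded. E2F transcription factors switch on the genes of DNA replication before S phase, and the MMB complex with FOXM1 and NF-Y switches on mitotic genes later. NF-kB and NRF2 drive the inflammatory and the antioxidant programmes, and myeloid cells that mature along the macrophage path raise genes for phagocytosis, antigen presentation and lysosomes.

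Most genes stood close to the untreated level. The middle 50% of genes had ratios between -0.14 and 0.16, and the middle 90% between -0.42 and 0.57. In the 1.5 nM library 166 genes reached 2-fold or more above the untreated level (1.47% of those analysed), and 65 reached 2-fold or more below it (0.574%). At the smaller threshold of 1.4-fold, 699 genes (6.17%) were higher and 373 (3.29%) lower. Ratios above 0 made up 49.8% and ratios below 0 50.2%. The large ratios lay among genes of low level. Of 648 genes with a mean under 2 CPM, 28.4% were 1.4-fold or more above and 13.1% below, and of 900 genes at 2 to 5 CPM 21.9% and 11.3%. Of 2448 genes at 100 CPM or more, in contrast, 0.817% were higher, 0.98% were lower and 0 passed 2-fold. The counts of list members past 1.4-fold given below stand beside these shares, and members of low level beside the larger ones. Of the 65 genes past 2-fold lower, 29 were uncertain and 6 belonged to the nearly missing genes, while 27 of the 166 higher genes were uncertain.

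**Figure D1:**
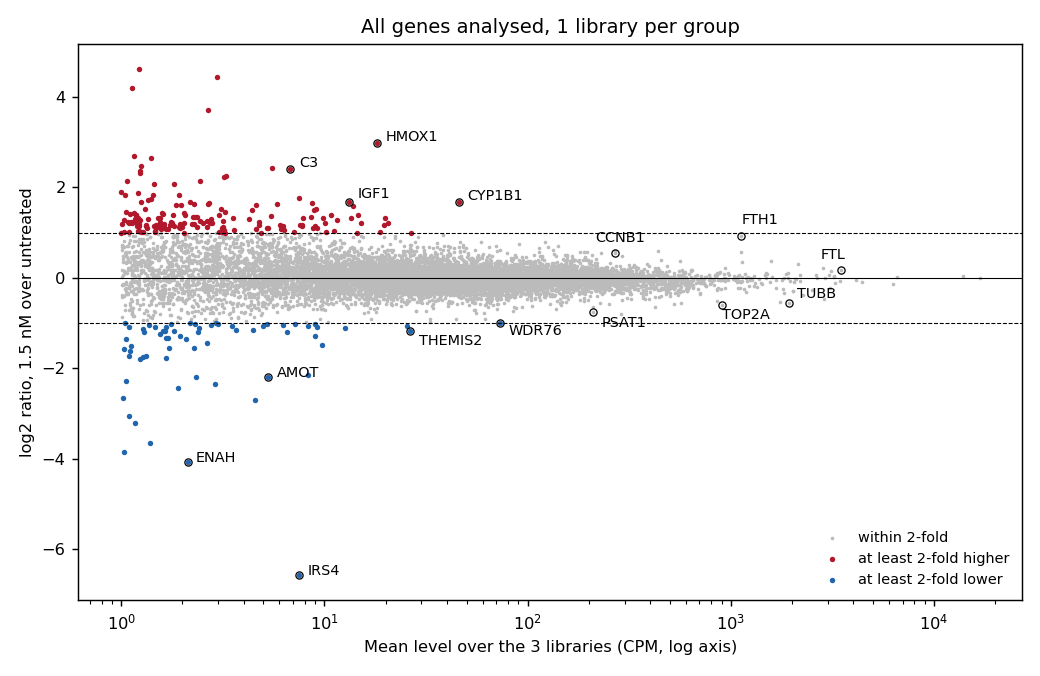
Log2 ratio of the 1.5 nM to the untreated library (vertical) against the mean level over the 3 libraries in CPM (horizontal, log axis), 1 point per gene for 11322 genes. Red points lie 2-fold or more above the untreated level and blue points 2-fold or more below it; ringed points are named. The ratios narrow with rising level, and at high levels TUBB, TOP2A and FTH1 stand apart from their neighbours without passing 2-fold. The points of IRS4 and of other genes with few or no counts at 1.5 nM depend on the prior count.

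Genes were ranked by how far their counting interval lay from 0. On the higher side HMOX1, which degrades haem, stood first at 4.72, 12 and 37.8 CPM and a ratio of 2.97 [2.70, 3.32]. C3, the central complement protein, followed at 2.36, 5.15 and 12.9 CPM and 2.40 [2.01, 2.91]. GPNMB, a glycoprotein of macrophage lysosomes, was at 1.04, 3.45 and 5.35 CPM and 2.25 [1.69, 3.09]. CYP1B1, which encodes a xenobiotic-metabolising enzyme, was at 20.8, 51.0 and 66.3 CPM and 1.67 [1.52, 1.83]. ZNF366, which encodes a zinc finger protein of dendritic cells, was at 0.817, 2.54 and 3.94 CPM and 2.13 [1.50, 3.11]. In each of these 5 genes the 0.5 nM level lay between the other levels. Further down the same ranking stood IGF1, a growth factor gene (1.68), SEMA6B, a semaphorin (1.58), CD109, a surface protein that binds TGF-beta (1.52), SLC37A2, a sugar phosphate transporter of macrophages (1.38), and CD101, an immunoglobulin-like surface protein (1.33). On the TPM scale, where a pseudocount of 1 shrinks the ratios of low genes, ZNF366 was at 0.85, GPNMB at 1.59 and C3 at 1.72. The lower side began with IRS4, ENAH, AMOT, PLS3, THEMIS2 and HPDL, whose values are given in the last paragraph. WDR76, which encodes a WD repeat protein linked to DNA damage, came next at 94.2, 78.3 and 46.7 CPM and -1.01 [-1.13, -0.89]. FBXO5, the inhibitor of the anaphase-promoting complex known as EMI1, stood further down at 75.8, 68.7 and 40.1 CPM and -0.92 [-1.05, -0.79]. WDR76 and FBXO5 were lowest in the 1.5 nM library.

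**Figure D2:**
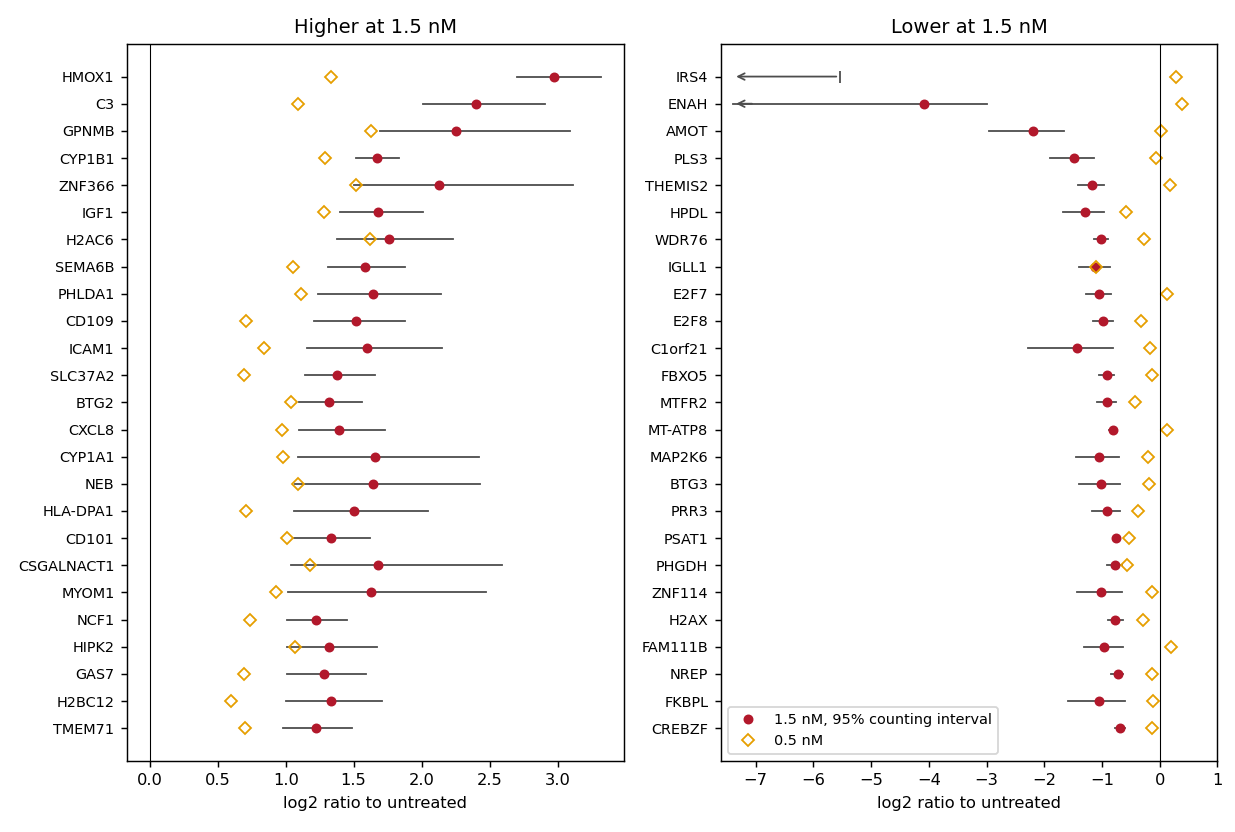
Log2 ratios to the untreated library for the 25 genes in each direction whose 95% counting interval at 1.5 nM lies farthest from 0 (red circles with intervals; open diamonds are the 0.5 nM library). On the left every diamond lies above 0, from HMOX1 at 2.97 to TMEM71 at 1.22 for the circles. On the right most diamonds lie near 0, and an arrow marks an interval with no lower end on the axis, as for IRS4 with 0 counts.

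The tubulin genes with the highest levels per length were lower. TUBB, a beta tubulin gene, stood at 2366, 1824 and 1604 CPM, a ratio of -0.56 [-0.58, -0.54], and the uncertain alpha tubulin gene TUBA1B at 2092, 1695 and 1444 CPM, a ratio of -0.54 [-0.56, -0.51]. The untreated library was highest and the 1.5 nM library lowest in both. Summed over all 16 tubulin genes listed, levels per length were 5560, 4760 and 4140 TPM (a share of 1000000, scaled to gene length). Of the 13 tubulin genes measured, 2 were at least 1.4-fold higher and 3 lower, TUBB and TUBA1B among the latter. The median of the 13 was -0.12 against 0.00 over all genes, and 10 of the 13 were uncertain. TUBA1C was at -0.37, TUBB6 at 0.09, TUBA1A at 0.79 and TUBB3 at 1.11, all uncertain. TUBB3 rested on 24, 15 and 42 counts. The lowest ratio in the list was -1.09, so TUBB and TUBA1B did not have the largest tubulin differences by ratio. TTC5, which recognises nascent tubulin, stood at 22.6, 22.2 and 17.1 CPM and -0.40 [-0.62, -0.19]. The chaperonin subunits and cofactors that fold tubulin sat close to the untreated level, with 15 of 19 below 0, a median of -0.06 and the lowest ratio, -0.16, in CCT6A.

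Motors and other microtubule proteins lay near the untreated level. Of 21 kinesins 0 passed 1.4-fold higher and 0 lower, with a median of 0.12 and a range from -0.33 in KIF11, the motor that separates spindle poles, to 0.41 in KIF1B. Dynein and dynactin genes had a median of 0.05 over 20 genes. Among the microtubule-associated proteins STMN1, which sequesters tubulin dimers, was at 676, 606 and 565 CPM and -0.26 [-0.30, -0.22], and TACC3, which steadies spindle fibres, at 173, 178 and 228 CPM and 0.40 [0.33, 0.46]. MAP1A was the lowest of that list at -1.19, from 74, 39 and 24 counts. The 20 centriole and centrosome genes had a median of -0.04, with 8 above 0 and 12 below. The 2 that were at least 1.4-fold lower were CEP97 at -0.68 [-0.85, -0.51] and SASS6, which forms the centriole's cartwheel, at -0.54 [-0.69, -0.39], and the highest was the centrosomal kinase gene NEK2 at 0.41 [0.29, 0.53].

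DNA replication genes were lower as a body. All 24 licensing and helicase genes measured (of 24 listed) and all 28 polymerase and fork genes (of 28) had ratios below 0, with medians of -0.34 and -0.33. At 0.5 nM the same medians were -0.14 and -0.13. 2 licensing genes and 4 fork genes were at least 1.4-fold lower and 0 higher. MCM3, a subunit of the replicative helicase, stood at 372, 323 and 268 CPM and -0.48 [-0.53, -0.42]. MCM4 of the same ring was at 998, 858 and 701 CPM and -0.51 [-0.54, -0.48]. CDC6, which loads that ring, was at 114, 102 and 82.7 CPM and -0.47 [-0.56, -0.37]. CLSPN, the fork protein that relays the checkpoint signal, had the largest difference of the fork genes, at 108, 104 and 69.8 CPM and -0.64 [-0.74, -0.53]. The order of the libraries was the same in these 4 genes, highest in the untreated and lowest in the 1.5 nM library. Weakest were ORC6 (-0.03, uncertain), PRIM2 (-0.03) and RPA2 (-0.03).

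Most genes that supply and repair DNA were lower too. Of 11 deoxynucleotide synthesis genes 9 were below 0, with a median of -0.31. RRM2, the regulated subunit of ribonucleotide reductase, was at 426, 401 and 307 CPM and -0.47 [-0.52, -0.42], and its p53-responsive paralogue RRM2B was at 178, 239 and 192 CPM and 0.11 [0.04, 0.17], highest at 0.5 nM. All 24 homologous recombination and Fanconi genes were below 0 (median -0.29), led by the helicase gene BRIP1 at -0.59 [-0.72, -0.46] and the nuclease gene EXO1 at -0.57 [-0.68, -0.46]. All 7 mismatch repair genes were below 0 as well (median -0.20), as were all 17 genes of purine and pyrimidine synthesis (median -0.15). In the damage checkpoint list 15 of 17 genes were below 0. Its strongest member was H2AX, the histone variant phosphorylated at DNA breaks, at 75.7, 61.9 and 44.4 CPM and -0.77 [-0.90, -0.64]. TOPBP1, the activator of the kinase ATR, was at -0.57 [-0.63, -0.51], while ATR itself was at -0.04 [-0.13, 0.04]. UHRF1, which guides maintenance methylation of DNA, was at 531, 404 and 339 CPM and -0.65 [-0.69, -0.60].

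The E2F factors were not alike. The activator E2F1 stood at 42.1, 37.2 and 29.7 CPM and -0.50 [-0.66, -0.35]. The repressors E2F7 and E2F8 had larger differences: E2F7 was at 29.7, 32.2 and 14.2 CPM and -1.06 [-1.28, -0.85], with 0.12 for 0.5 nM, and E2F8 at 43.0, 34.4 and 21.7 CPM and -0.98 [-1.16, -0.81]. E2F3 was at 0.25, E2F4 at 0.09 and E2F6 at 0.18. CCNE1, the cyclin of S phase entry, was at 38.1, 33.5 and 22.9 CPM and -0.73 [-0.91, -0.56], and the uncertain CCNE2 at -0.92. Of the pocket proteins, RBL1 was at -0.52 [-0.60, -0.44] and the uncertain RBL2 at 0.23. In the list as a whole 6 of 20 genes were at least 1.4-fold lower and 0 higher. Among CDK inhibitors, CDKN1A, which encodes p21, stood at 11.7, 31.8 and 19.7 CPM and 0.75 [0.51, 0.99], highest in the 0.5 nM library, and CDKN1C at 1.83, from 10, 13 and 32 counts.

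Promoter sequences of 3 of these lower genes are shown because they hold an E2F motif, TTTCCCGC or TTTGGCGC, read on both strands. Each line gives the 250 bases before the gene's start in RefSeq (GRCh38.p14), 5′ to 3′ on the gene's strand, with the motif in capitals. MCM3 lies at chr6:52284743-52284992, minus strand, E2F1 at chr20:33686386-33686635, minus strand and RBL1 at chr20:37095998-37096247, minus strand.
MCM3: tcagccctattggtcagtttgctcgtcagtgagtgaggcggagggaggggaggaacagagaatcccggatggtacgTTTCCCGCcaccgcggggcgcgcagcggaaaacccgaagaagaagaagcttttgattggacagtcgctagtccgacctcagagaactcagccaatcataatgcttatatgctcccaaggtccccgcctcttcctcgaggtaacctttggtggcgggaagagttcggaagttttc
E2F1: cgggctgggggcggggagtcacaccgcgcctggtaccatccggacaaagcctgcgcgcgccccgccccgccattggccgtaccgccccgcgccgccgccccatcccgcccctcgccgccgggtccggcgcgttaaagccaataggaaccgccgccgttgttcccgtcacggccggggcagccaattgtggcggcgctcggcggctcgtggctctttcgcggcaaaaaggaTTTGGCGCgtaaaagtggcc
RBL1: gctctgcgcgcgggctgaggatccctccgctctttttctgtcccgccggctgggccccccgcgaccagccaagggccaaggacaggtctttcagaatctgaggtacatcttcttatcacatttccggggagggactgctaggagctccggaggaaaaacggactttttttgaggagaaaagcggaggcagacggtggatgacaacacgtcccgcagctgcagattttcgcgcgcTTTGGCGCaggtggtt
The first base of the motif lies 174 bases before the start in MCM3, 20 in E2F1 and 16 in RBL1. Of 16 licensing genes with a RefSeq promoter, 5 (31.2%) hold such a motif, and of 19 fork genes, 4 (21.1%). The share was 3.45% among 6546 analysed genes with a promoter and 1.92% among all 22031 promoters. None of 74 genes at least 2-fold higher held one (0 of 74), and 0 of 16 recombination and Fanconi genes did. Among 28 genes at least 2-fold lower 1 (3.57%) did. At 1.4-fold the motif was in 9 of 198 lower genes (4.55%) and 3 of 349 higher genes (0.86%). The shares of the lower sets thus lay near that of all analysed genes. These matches describe the letters in the window and say nothing about binding.

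Mitotic genes stood on both sides. CCNB1, the cyclin that drives mitotic entry, stood at 224, 254 and 325 CPM and 0.54 [0.48, 0.60]. CDC20, which activates the anaphase-promoting complex, was at 144, 146 and 203 CPM and 0.49 [0.42, 0.56], and PLK1, a mitotic kinase, at 141, 140 and 186 CPM and 0.40 [0.33, 0.47]. In CDC20 and PLK1 the 0.5 nM level equalled the untreated level within counting error. AURKA was at 0.49, HMMR, a spindle protein, at 0.50, UBE2S at 0.34 (0.21 in TPM) and CEP55, which acts in abscission, at 0.33. Other mitotic genes were lower. CDK1, the kinase that CCNB1 binds, was at 220.3, 194 and 155 CPM and -0.51 [-0.58, -0.44]. WEE1, the kinase that holds CDK1 inactive, was at 67.5, 57.3 and 41.0 CPM and -0.72 [-0.85, -0.59]. TOP2A, the topoisomerase that untangles chromosomes, was at 1060, 954 and 694 CPM and -0.61 [-0.64, -0.58], and the proliferation marker MKI67 at 777, 726 and 606 CPM and -0.36 [-0.39, -0.32]. INCENP, the scaffold of the chromosomal passenger complex, was at -0.47 [-0.58, -0.36], and CENPC, which anchors the kinetochore, at -0.55 [-0.69, -0.43]. The medians were -0.02 over 26 entry and exit regulators, -0.12 over 32 kinetochore genes, 0.01 over 16 passenger and cytokinesis genes and -0.15 over 18 condensin and cohesin genes.

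The promoter of CCNB1 is shown for its CCAAT boxes, the letters that NF-Y reads, again as the 250 bases before the start (RefSeq, GRCh38.p14, chr5:69166900-69167149, plus strand) with the boxes in capitals.
CCNB1: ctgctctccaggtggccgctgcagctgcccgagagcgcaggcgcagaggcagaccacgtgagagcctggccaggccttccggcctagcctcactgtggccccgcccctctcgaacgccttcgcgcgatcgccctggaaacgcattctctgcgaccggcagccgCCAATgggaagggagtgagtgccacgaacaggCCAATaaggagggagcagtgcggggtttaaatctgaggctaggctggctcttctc
The boxes begin 87 and 55 bases before the start. Of 13 entry and exit regulators with a RefSeq promoter, 11 (84.6%) hold CCAAT on either strand, against 37.0% of 6546 analysed genes. The motif was thus present in the promoters of genes on both sides of 0.

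**Figure D3:**
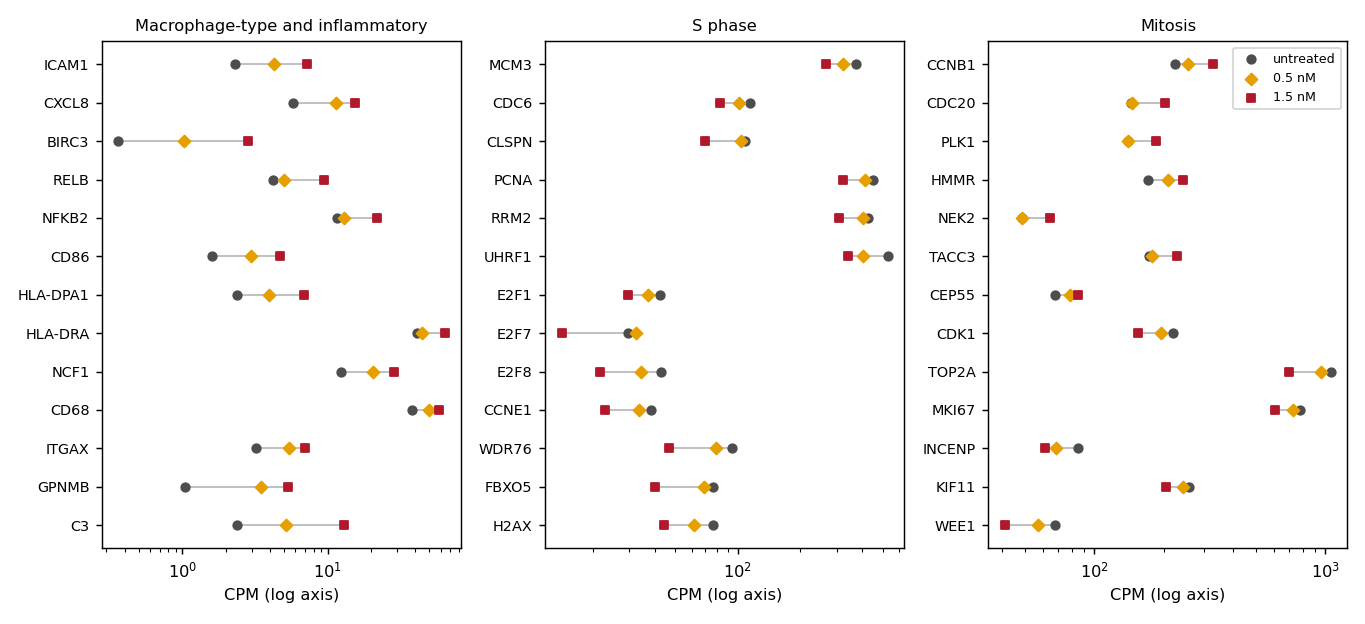
Level of each gene in the 3 libraries in CPM (horizontal, log axis) for genes of inflammation and macrophages, S phase and mitosis, chosen after their values were seen; circles are untreated, diamonds 0.5 nM and squares 1.5 nM, and the line joins untreated to 1.5 nM. Squares lie to the right of circles for all 13 genes in the first panel and to the left for all 13 in the second. In the third panel CCNB1, CDC20, PLK1, HMMR, NEK2, TACC3 and CEP55 lie right and the other 6 lie left.

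Replication-dependent histone genes, whose transcripts mostly lack poly(A) tails, had a median of 0.78 over 12 genes (0.39 with no expression minimum and 1.33 with a mean of at least 5 CPM), 7 at least 1.4-fold higher and 2 lower. H2AC6 was at 2.95, 9.26 and 10.2 CPM and 1.76 [1.38, 2.23], and H2BC12 at 4.63, 7.08 and 11.8 CPM and 1.33 [1.00, 1.71]. H2AC20 went the other way at -1.52, from 38, 18 and 9 counts. Oligo(dT) capture measures the polyadenylated part of these transcripts.

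Several genes of the oxidative stress response were higher. Of 20 NRF2 and antioxidant genes 7 stood 1.4-fold or more above the untreated level and 0 below it, with a median of 0.36 against 0.17 at 0.5 nM. The shares over all genes were 6.17% above and 3.29% below, and at a mean of 2 to 5 CPM 21.9% and 11.3%. After HMOX1, SLC7A11, the cystine importer, stood at 27.8, 34.1 and 53.5 CPM and 0.94 [0.80, 1.10]. OSGIN1, a small oxidative stress protein, was at 1.41, 2.36 and 3.53 CPM and 1.26 [0.68, 2.00]. ME1, which makes NADPH, was at 4.54, 5.15 and 7.94 CPM and 0.79 [0.42, 1.20], and NQO1, a quinone reductase, at 53.9, 64.3 and 76.5 CPM and 0.51 [0.39, 0.62]. The 1.5 nM library was the highest in each of these 5 genes. TXNRD1 (0.06), GSR (0.02) and TXN (-0.12) stayed near the untreated level. The 22 glutathione enzymes and peroxiredoxins measured had a median of -0.03, with 10 above 0 and 12 below, from -0.93 to 0.95. Among glutathione enzymes OPLAH, which recycles oxoproline, was at 4.76, 3.81 and 8.24 CPM and 0.78 [0.41, 1.17]. PGD, an NADPH-producing enzyme of the pentose phosphate pathway, was at 0.30 [0.25, 0.34].

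The 18 iron and haem genes measured had a median of 0.12, and 2 of them, HMOX1 and FTH1, were at least 1.4-fold higher. FTH1, the uncertain gene of the ferritin heavy chain, stood at 777, 1115 and 1482 CPM and 0.93 [0.90, 0.96], and the light chain gene FTL at 0.17 [0.16, 0.19]. ALAS1, the first enzyme of haem synthesis, was at 0.37 and SLC48A1, which exports haem from lysosomes, at 0.46. Summed over all 22 iron and haem genes listed, levels per length were 10700, 11900 and 13700 TPM. BLVRA, the reductase downstream of HMOX1, was on the lower side at -0.87, from 28, 18 and 11 counts. Some metallothioneins, which bind zinc and copper, were also lower: MT1X stood at 39.0, 24.5 and 26.6 CPM and -0.55 [-0.72, -0.39], MT1G at 79.8, 54.1 and 55.4 CPM and -0.53 [-0.64, -0.41] and MT1F at 34.0, 27.7 and 23.5 CPM and -0.53 [-0.71, -0.35].

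All 10 measured genes of the aryl hydrocarbon receptor axis and tryptophan breakdown were above 0, 4 of them at least 1.4-fold, with a median of 0.44. Of all genes analysed 6.17% were 1.4-fold higher, and of those with a mean of 2 to 5 CPM 21.9%. Of the 10 genes 5 were uncertain. CYP1A1, a classic target of the receptor, stood at 1.27, 2.60 and 4.24 CPM and 1.66 [1.09, 2.42]. The uncertain IL4I1, an oxidase that makes receptor ligands from tryptophan, was at 1.77, 4.90 and 9.94 CPM and 2.42 [1.98, 3.03]. The repressor AHRR (uncertain, 0.37) and TIPARP (0.43) were modestly higher.

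Several amino acid synthesis genes were lower. PSAT1 and PHGDH catalyse consecutive steps of serine synthesis; PSAT1 stood at 275, 191 and 164 CPM and -0.75 [-0.81, -0.68] and PHGDH at 73.9, 50.1 and 42.9 CPM and -0.78 [-0.91, -0.66]. ALDH1L2, a mitochondrial folate enzyme, was at 90.2, 65.9 and 55.3 CPM and -0.70 [-0.82, -0.59], and ASNS, which makes asparagine, at 71.1, 53.9 and 51.1 CPM and -0.47 [-0.60, -0.35], or -0.22 on the TPM scale. In these 4 genes both treated libraries lay below the untreated one. The list median was -0.21, and 18 of 20 cytosolic aminoacyl-tRNA synthetases were below 0 (median -0.11). The 4 genes are known targets of ATF4. ATF4 itself was at -0.14, and its other targets were mixed, with CHAC1 at -0.93 [-1.90, -0.16], TRIB3 at 0.11, DDIT3 at 0.13 (uncertain) and ATF3 at 0.81 [0.37, 1.31]. The amino acid transporter gene SLC38A2 was at 248, 221 and 159 CPM and -0.64 [-0.71, -0.58]. Heat shock genes (-0.03) and unfolded protein response genes (0.00) had medians near 0, with HSPA5 at 0.05 and BAG3 at 0.40.

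NF-kB genes of the non-canonical arm were higher. RELB, a subunit of that arm, stood at 4.22, 5.03 and 9.41 CPM and 1.14 [0.78, 1.54], and its partner NFKB2 at 11.6, 13 and 21.8 CPM and 0.91 [0.68, 1.15]. At 0.5 nM the ratios were 0.25 and 0.17. BCL3 was at 1.72, 1.70 and 3.24 CPM and 0.87 [0.29, 1.54] and the adaptor TRAF1 at 0.78. The canonical subunit NFKB1 was at 0.46 [0.34, 0.58] and the feedback inhibitor TNFAIP3 at 0.44 [0.24, 0.65], while the uncertain REL was at -0.14. In the list 4 of 19 genes lay 1.4-fold or more above untreated and 0 below, with a median of 0.16 against -0.02 at 0.5 nM; over the members with a mean of at least 5 CPM it was 0.00. The share of all genes 1.4-fold higher was 6.17%. It was 21.9% at a mean of 2 to 5 CPM and 8.56% at 5 to 20 CPM. Known targets, chosen after their values were seen, ranged widely. ICAM1, the ligand of leukocyte integrins, was at 2.31, 4.24 and 7.24 CPM and 1.60 [1.16, 2.15]. CXCL8, the neutrophil chemokine, was at 5.76, 11.4 and 15.3 CPM and 1.39 [1.10, 1.73]. BIRC3, a ubiquitin ligase that restrains non-canonical signalling, was at 8, 17 and 48 counts and 2.64 [1.87, 4.25], or 0.67 on the TPM scale. IL1B was at 0.79 from 26, 27 and 36 counts, and TNF at 0.43.

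The promoters of ICAM1, CXCL8 and BIRC3 are shown for a match to an NF-kB motif, GGANATTCC, GGANTTTCC, GGGNATTCC or GGGNTTTCC, on either strand. They are written as the promoters above (RefSeq, GRCh38.p14), with the motif in capitals. ICAM1 lies at chr19:10270870-10271119, plus strand, CXCL8 at chr4:73740319-73740568, plus strand and BIRC3 at chr11:102317234-102317483, plus strand.
ICAM1: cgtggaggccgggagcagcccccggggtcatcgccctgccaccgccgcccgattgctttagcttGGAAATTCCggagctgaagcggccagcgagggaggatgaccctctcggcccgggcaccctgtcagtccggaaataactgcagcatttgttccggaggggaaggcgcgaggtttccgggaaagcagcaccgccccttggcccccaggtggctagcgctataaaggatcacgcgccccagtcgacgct
CXCL8: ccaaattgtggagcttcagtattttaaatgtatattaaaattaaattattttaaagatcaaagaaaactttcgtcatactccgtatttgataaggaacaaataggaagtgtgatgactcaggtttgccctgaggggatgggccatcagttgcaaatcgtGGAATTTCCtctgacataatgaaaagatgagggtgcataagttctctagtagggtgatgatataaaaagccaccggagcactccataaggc
BIRC3: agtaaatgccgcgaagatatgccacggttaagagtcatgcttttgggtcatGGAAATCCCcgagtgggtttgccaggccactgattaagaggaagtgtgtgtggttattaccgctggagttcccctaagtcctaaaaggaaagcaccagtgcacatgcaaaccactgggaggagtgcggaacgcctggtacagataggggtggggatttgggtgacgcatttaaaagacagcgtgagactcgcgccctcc
The match begins 186 bases before the start in ICAM1, 91 in CXCL8 and 199 in BIRC3, where it is on the opposite strand. Of 7 NF-kB list genes with a RefSeq promoter, 5 (71.4%) hold a match. Among 74 genes at least 2-fold higher 7 (9.46%) do, and among 28 at least 2-fold lower 3 (10.7%) do, against 4.43% of 6546 analysed genes.

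Interferon-response genes were mixed and mostly of low level. Of 25 genes 7 stood 1.4-fold or more above the untreated level and 2 below it, with a median of 0.29. Among all genes analysed 6.17% were higher and 3.29% lower by that measure. Among those with a mean under 2 CPM it was 28.4% and 13.1%, and at 2 to 5 CPM 21.9% and 11.3%. IFIH1, a sensor of double-stranded RNA, stood at 9.85, 12.8 and 18.6 CPM and 0.91 [0.66, 1.17], and MX2 at 10.1, 12.4 and 14.5 CPM and 0.51 [0.25, 0.78], or 0.11 on the TPM scale. The uncertain sensor gene RIGI went the other way, at 7.40, 8.84 and 4.77 CPM and -0.62 [-1.04, -0.24]. OAS1 and OAS3 pointed in opposite directions on 13, 16 and 30 counts and 30, 22 and 10 counts.

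Several genes of antigen presentation and the macrophage surface were higher. HLA-DPA1, a class II chain, stood at 2.36, 3.94 and 6.88 CPM and 1.50 [1.06, 2.05]. HLA-DRA was at 40.9, 44.5 and 64.0 CPM and 0.65 [0.52, 0.78], and CD74, the class II chaperone, at 168, 174 and 229.7 CPM and 0.45 [0.39, 0.52]. The co-stimulatory gene CD86 was at 1.59, 2.97 and 4.71 CPM and 1.51 [0.98, 2.18]. The uncertain CIITA, the master activator of class II genes, was at 0.31, but at -0.32 on the TPM scale. In the class II list 5 of 9 genes lay 1.4-fold or more above untreated and 0 below (median 0.50, against 0.13 at 0.5 nM). The lowest of the 9 was at -0.49, and 3 were uncertain. Class I and peptide loading genes had a median of 0.12. Of 18 monocyte and macrophage markers 7 were at least 1.4-fold higher and 1 lower, the lower one being VCAN on 22, 32 and 11 counts. Beside the class II and macrophage counts, 6.17% of all genes were 1.4-fold higher, and 21.9% of those with a mean of 2 to 5 CPM. CD68, a macrophage endosomal protein, was at 38.2, 49.4 and 57.9 CPM and 0.60 [0.47, 0.73]. ITGAX, which encodes CD11c, was at 3.22, 5.39 and 7.0 CPM and 1.09 [0.68, 1.56], and ITGAM, which encodes CD11b, at 2.13, 2.85 and 4.06 CPM and 0.90 [0.37, 1.50]. CD33 (0.03), FCGR1A (0.08) and S100A9 (-0.20) stayed near or below the untreated level. Neutrophil granule genes had a median of -0.07, with CTSG at -0.36 [-0.45, -0.28], PRTN3 at -0.28 [-0.32, -0.24] and LYZ at 0.31 [0.29, 0.33].

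Several phagocyte genes for uptake and killing were higher as well. NCF1, which encodes a cytosolic subunit of the NADPH oxidase, stood at 12.2, 20.5 and 28.7 CPM and 1.22 [1.01, 1.45]. The membrane subunits had smaller ratios, CYBB at 0.36 and CYBA at -0.03. NCF1 has near-identical pseudogene copies, so its reads may be split. Among receptors for the antibody Fc part, FCGR2A was at 18.3, 25.6 and 30.0 CPM and 0.71 [0.52, 0.90], and FCGRT, the neonatal Fc receptor that recycles antibodies, at 4.36, 5.45 and 9.12 CPM and 1.05 [0.69, 1.45]. TYROBP, the adaptor of activating receptors, was at 0.53 [0.37, 0.70], and the kinase SYK at -0.10 [-0.14, -0.05]. Of 16 Toll-like receptor and adaptor genes 4 were at least 1.4-fold higher, against 6.17% of all genes and 21.9% of those with a mean of 2 to 5 CPM. Among the 4 was LY96 at 1.09 from 28, 29 and 48 counts, while TLR2 was at 0.27 [0.20, 0.34] and the uncertain TLR4 at -0.09. TBXAS1, thromboxane synthase, was at 4.17, 5.99 and 7.88 CPM and 0.90 [0.52, 1.32], and PTGS1, which encodes COX-1, at 14.6, 18.0 and 22.7 CPM and 0.63 [0.42, 0.85]. NLRC4, an inflammasome sensor, was at 0.86 [0.42, 1.35] and NLRP3 at -0.15 [-0.27, -0.03]. Besides C3, the complement list held properdin, CFP, at 0.88, with CD46 at 0.00 and CD59 at 0.17.

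Of 18 integrins and matrix receptors 8 were at least 1.4-fold higher, 4 of them 2-fold, and 0 lower, with a median of 0.36, or 0.13 over the members with a mean of at least 5 CPM. Over all genes 6.17% were 1.4-fold higher and 1.47% 2-fold, and of those with a mean of 2 to 5 CPM 21.9% were 1.4-fold higher. ITGA6, a laminin receptor chain, stood at 6.26, 9.20 and 14.7 CPM and 1.21 [0.92, 1.54]. ITGB5 was at 1.45, 3.27 and 3.47 CPM and 1.20 [0.61, 1.93], and PECAM1, an adhesion protein, at 88.3, 124 and 152 CPM and 0.78 [0.70, 0.87]. The leukocyte chain ITGAL was at 1179, 1230 and 1172 CPM and -0.01 [-0.04, 0.02]. FLNA, which cross-links actin, was at 929.5, 1060 and 1380 CPM and 0.57 [0.54, 0.60].

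Lysosomal genes stood slightly higher almost throughout. Of 34 lysosomal genes 33 were above 0, with a median of 0.21 against 0.08 at 0.5 nM, and 5 were at least 1.4-fold higher. PSAP, the precursor of saposins, stood at 156, 160 and 229 CPM and 0.56 [0.49, 0.62]. GAA, the lysosomal glucosidase, was at 29.7, 31.4 and 44.2 CPM and 0.57 [0.42, 0.73], NEU1 at 0.47 [0.33, 0.62] and the calcium channel MCOLN1 at 0.56 [0.32, 0.81]. Of 16 subunits of the V-ATPase, the proton pump of lysosomes, 15 were above 0 (median 0.13), with ATP6V0A1 at 0.62 [0.47, 0.77]. Among autophagy genes GABARAPL1 was at 5.31, 7.45 and 10.3 CPM and 0.94 [0.61, 1.31] and the uncertain receptor SQSTM1 at 0.62 [0.54, 0.70]. The lysosomal transcription factors TFEB (-0.13) and MITF (-0.75, from 41, 24 and 18 counts) were on the lower side.

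**Figure D4:**
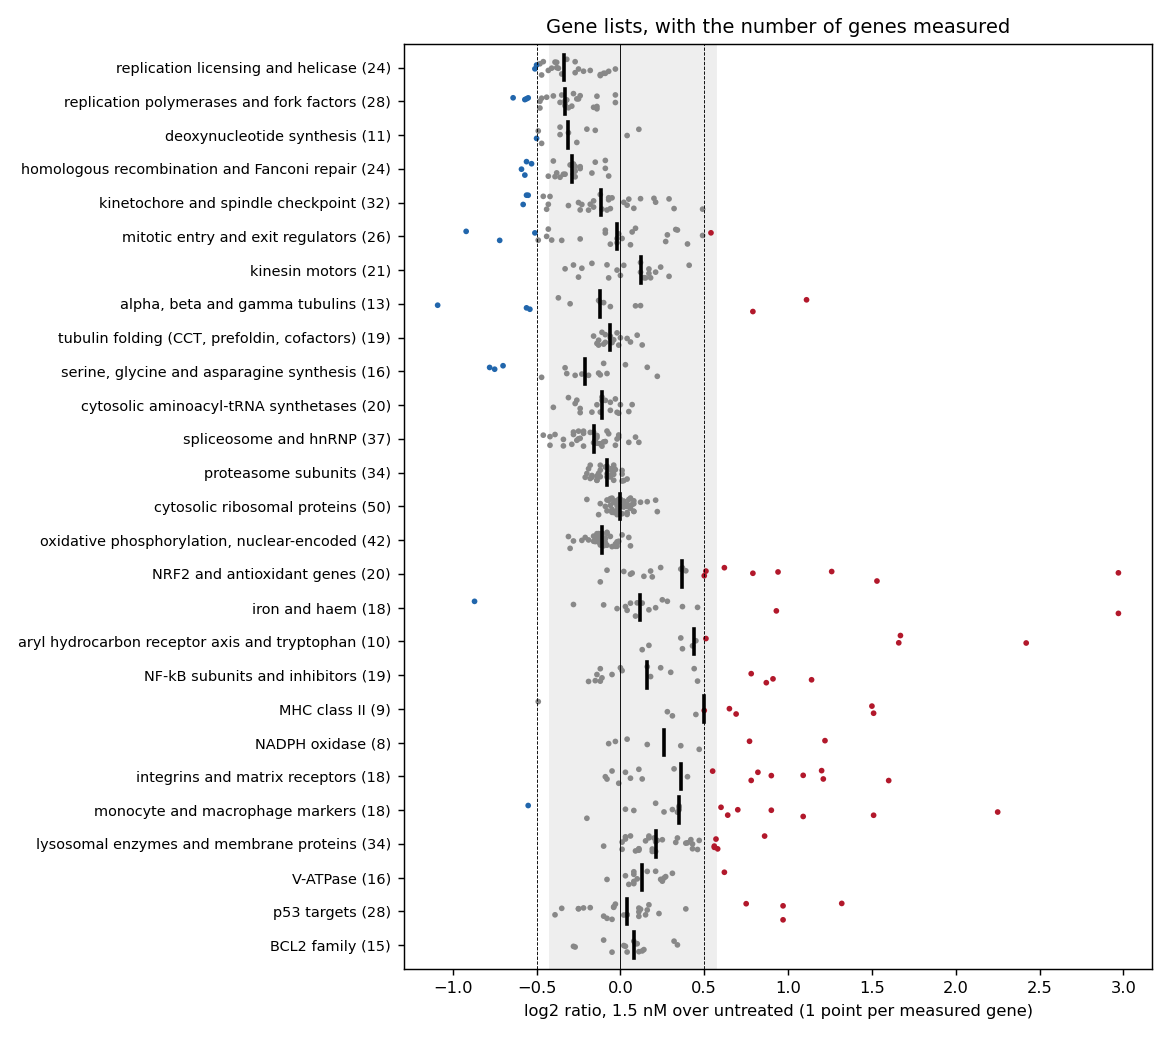
Log2 ratio of the 1.5 nM to the untreated library for each measured gene of 27 lists (1 point per gene, black bar at the list median, number of genes in brackets); the grey band holds the middle 90% of all genes, from -0.42 to 0.57, and dashed lines mark 1.4-fold. Replication, deoxynucleotide and recombination lists lie left of 0, while class II, aryl hydrocarbon receptor, NRF2, integrin and macrophage lists reach far to the right. Ribosomal protein, proteasome and oxidative phosphorylation genes cluster tightly near 0.

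FLT3, the receptor of the ligand part, stood at 506, 489 and 448 CPM and -0.17 [-0.22, -0.13]. Genes downstream of it were mixed: SOCS2, a STAT5 target, was at -0.28 [-0.43, -0.13], PIM1 at -0.29 [-0.42, -0.17], PIM2 at 0.24 [0.07, 0.40] and STAT3 at 0.41 [0.30, 0.53], with a list median of 0.05. Of MAPK feedback genes DUSP6 was at -0.41 [-0.59, -0.24], SPRY2 at -0.45 [-0.91, -0.02], ETV5 at 0.47 [0.29, 0.66] and DUSP10 at 0.71 [0.50, 0.93]. PHLDA1, an early-response gene, was at 2.72, 5.99 and 8.71 CPM and 1.64 [1.24, 2.14], and JUN, an AP-1 subunit, at 5.35, 10.6 and 11.7 CPM and 1.11 [0.79, 1.47], while JUND was at 40.2, 36.5 and 28.0 CPM and -0.52 [-0.68, -0.36]. Receptor kinase AXL was at 4.67, 7.87 and 10.7 CPM and 1.17 [0.83, 1.55] and SRC at 6.35, 11.3 and 13 CPM and 1.02 [0.72, 1.35]. In the IGF axis IGF1 was at 5.90, 14.5 and 19.2 CPM and 1.68 [1.4, 2.01]. Its receptor IGF1R was at -0.36 [-0.55, -0.17] but at 0.00 on the TPM scale, the insulin receptor INSR at -0.34 [-0.45, -0.23] and the binding protein IGFBP2 at -0.45 [-0.57, -0.32].

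Several leukaemia regulators were slightly lower. The list of HOXA cluster genes and KMT2A fusion targets had a median of -0.08 over 18 genes, against -0.02 at 0.5 nM. In it 13 genes were below 0 and 5 above, from -0.49 to 0.22, and 0 passed 1.4-fold. Myeloid and stem cell transcription factors had a median of 0.01 over 24 genes, with 12 above 0 and 12 below. HOXA9 stood at 62.3, 62.7 and 48.2 CPM and -0.37 [-0.50, -0.24], HOXA10 at 44.3, 37.8 and 31.5 CPM and -0.49 [-0.65, -0.34] and MEIS1, their cofactor, at 88.1, 85.2 and 75.7 CPM and -0.22 [-0.32, -0.12]. MYB was at -0.16 [-0.19, -0.12] and IKZF1 at -0.30 [-0.35, -0.26]. SPI1, the myeloid master factor PU.1, was at 0.19 [0.10, 0.28], ID2 at 0.59 [0.40, 0.77] and CEBPA at -0.07 [-0.13, -0.01]. Cytokine receptor genes ran from -0.72 to 0.67, with EPOR at -0.72 [-1.06, -0.41] and IL10RA at 0.66 [0.33, 1.00]. CSF1R, the macrophage growth factor receptor, was at 0.35 [0.18, 0.52].

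The p53 targets had a median of 0.04, against 0.29 at 0.5 nM. BTG2, an antiproliferative gene, stood at 10.7, 22 and 26.8 CPM and 1.32 [1.10, 1.56], and TP53INP1 at 5.58, 11.0 and 11.1 CPM and 0.97 [0.65, 1.33], while RPS27L was at -0.25 [-0.36, -0.13] and DDB2 at -0.22 [-0.42, -0.03]. Within the BCL2 family 0 of 15 genes passed 1.4-fold higher and 0 lower. BMF, a pro-apoptotic protein tethered to the cytoskeleton, was at 40.8, 57.6 and 51.5 CPM and 0.34 [0.20, 0.47], BCL2L11, which encodes BIM, at 57.5, 58.4 and 47.4 CPM and -0.28 [-0.41, -0.15], and MCL1 at 0.09 [0.03, 0.15]. Among caspases CASP8 was at 0.33 [0.16, 0.51] and CASP2 at -0.45 [-0.54, -0.36].

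Genes of the basic machinery stood slightly lower, and 0 genes of the 5 lists named next passed 1.4-fold. Ratios were below 0 in 34 of 37 spliceosome and hnRNP genes (median -0.16), 24 of 29 ribosome biogenesis genes (-0.16), 39 of 42 nuclear-encoded respiratory chain genes (-0.11), 16 of 20 TCA cycle genes (-0.11) and 29 of 34 proteasome genes (-0.08). SF3B3, a splicing factor, was at -0.42 [-0.46, -0.37], FBL, the nucleolar methyltransferase, at -0.33 [-0.38, -0.27], and SDHA (uncertain) at -0.31. Cytosolic ribosomal protein genes had a median of 0.00 over 50 genes, from -0.20 in RPL22 to 0.22 in RPL28. MYC was at -0.23 [-0.28, -0.18]. Of the mitochondrially encoded genes MT-ATP8 stood apart at 324, 353 and 185 CPM and -0.81 [-0.87, -0.74]; it overlaps MT-ATP6, which was at -0.11 [-0.12, -0.09].

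On the scale of TPM, which allows levels of different genes to be set side by side, the largest gains among nuclear-encoded genes were in the ferritin chains. FTH1 stood at 1867, 2737 and 3581 TPM and FTL, the ferritin light chain, at 7486, 7731 and 8653 TPM. TMSB4X, an actin-sequestering peptide, was at 3139, 3645 and 4126 TPM, LYZ, lysozyme, at 2676, 2583 and 3405 TPM and SRGN, the granule proteoglycan serglycin, at 2198, 2698 and 2895 TPM. HSPA8, a constitutive chaperone, was at 2367, 2385 and 2822 TPM. The largest losses among nuclear-encoded genes were PTMA, a chromatin-associated acidic protein, at 4097, 3882 and 3212 TPM, TUBA1B at 2503, 2133 and 1773 TPM and TUBB at 1831, 1484 and 1273 TPM. HNRNPU, an uncertain RNA-binding protein gene, was at 1669, 1689 and 1326 TPM, and HMGB1, an architectural DNA-binding protein, at 2577, 2493 and 2144 TPM. The 10 largest nuclear-encoded gains summed to 7465 TPM and the 10 largest nuclear-encoded losses to -4938 TPM. The mitochondrially encoded MT-ATP8, at 3042, 3484 and 1786 TPM, had a larger loss than any of those 10 genes. In FTH1, TMSB4X, SRGN, TUBB and TUBA1B the 0.5 nM level lay between the others.

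**Figure D5:**
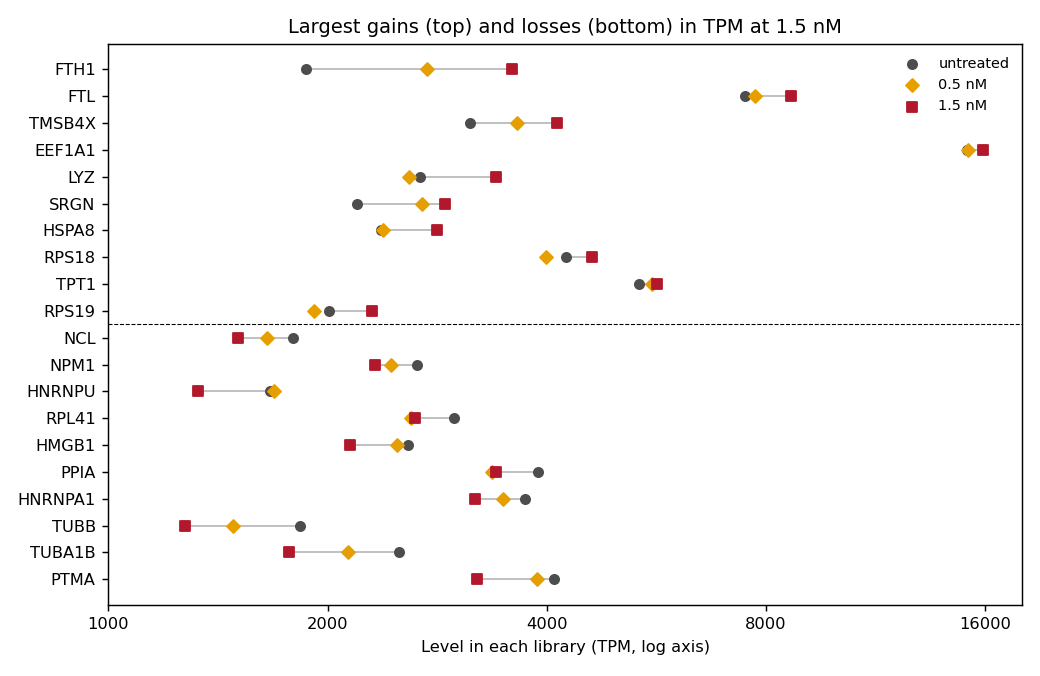
Level in each library in TPM (horizontal, log axis) for the 10 nuclear-encoded genes with the largest gain (above the dashed line) and the 10 with the largest loss (below it) between the untreated (circle) and the 1.5 nM library (square); diamonds are 0.5 nM. FTH1, from 1867 to 3581 TPM, differs most; EEF1A1 has the highest level, and RPS18 and RPS19 are lowest at 0.5 nM.

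Several further genes were lower at 1.5 nM, and IRS4, ENAH, AMOT and PLS3 stood near or above the untreated level at 0.5 nM, with ratios there of 0.28, 0.38, 0.03 and -0.07. IRS4, an insulin receptor substrate, had 224, 204 and 0 counts, which makes it at least 57.6-fold lower at 1.5 nM with 3 counts as the floor. ENAH, an actin regulator, had 60, 59 and 1 counts, and DSP, a desmosome protein, 32, 27 and 0 counts, at least 8.23-fold lower. AMOT, a junction protein, had 157, 120 and 25 counts, and PLS3, an actin bundler, 278, 198 and 75 counts. IRS4, AMOT and PLS3 belong to the list of neural and embryonic kidney line markers, of which 5 of 16 were measured; the other two, NEFH at -0.22 and DPYSL3 at 0.25, did not share the pattern. The summed level of that list was 23.6, 23.8 and 13.9 TPM. Whether RNA of another cell line in the untreated and 0.5 nM libraries had a part in these ratios, the fold bounds included, was not tested. THEMIS2, an adaptor of macrophage signalling, was at 679, 575 and 230 counts and -1.18 [-1.41, -0.97], but its ratio was -0.45 on the TPM scale. IGLL1, a pre-B-cell receptor component, was at 19.8, 9.14 and 9.06 CPM and -1.12 [-1.4, -0.86], with both treated libraries at one level. HPDL, a dioxygenase-like protein of mitochondria, was at 13, 8.66 and 5.24 CPM and -1.29 [-1.67, -0.96].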

How the data were processed

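Polyadenylated RNA of MV-4-11 cells was selected with oligo(dT) and, per the labels' protocols, sequenced by Illumina as random-primed cDNA. A single table with raw estimated counts and TPM values per gene for 3 libraries was deposited by the authors. The submitters' processing notes name HISAT2, edgeR, DESeq2, StringTie 1.3.1 and fastp 0.18.0. What each did, the genome build and any use of strand are not given in the sources used for this comparison.

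Estimated counts were rounded to whole numbers, and genes with a mean of 1 CPM or more were kept. Library sizes were scaled by TMM with edgeR 4.0.16 under R 4.3.3 (factors 0.987 untreated, 1.005 at 0.5 nM, 1.008 at 1.5 nM), and log2 CPM used a prior count of 2. TPM served as a check, with a pseudocount of 1: of 9183 genes with at least 5 TPM in both libraries, 20 had TPM and CPM ratios at least 0.5 apart, and 0 passed 0.5 in opposite directions. With 1 library per group a test between groups was not made. Exact Clopper-Pearson intervals of 95% and the floor of 3 counts (0.134 CPM untreated, 0.178 CPM at 1.5 nM) cover counting error alone, since PCR copies of a molecule are counted as reads. Python 3.11.15 with numpy 2.4.6, pandas 2.3.3, scipy 1.17.1 and matplotlib 3.10.9 was used.

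The rule for named genes took FLT3, then the 25 genes in each direction with whole counts, a symbol and a mean of 2 CPM or more whose interval lay farthest from 0, the 10 largest TPM gains and losses, up to 5 members of each list with at least 50 counts and the largest ratios, and 14 fixed genes. Other named genes were chosen after their values were seen. The comparison, the 85 gene lists and the rule were chosen with earlier results of these data known. Symbols came from the table (19715 genes; 617 had an identifier alone). Promoters are from RefSeq, 6546 of the analysed genes having one. The ratio and interval steps were tested on simulated Poisson counts, the error that the interval assumes. The list step was not tested. Alternatives were other scalings, filters, prior counts, TPM, whole-count genes, the nearly missing genes left out and a correction for GC content. Results for some genes are not reported here.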

Additional observations from a re-analysis of the deposited data

Results flagged for a closer look

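MX1, an interferon-induced antiviral gene, had a log2 ratio to the untreated library of 0.70 at 1.5 nM and -0.69 at 0.5 nM, so the single libraries of the doses lay on opposite sides of the untreated one. It rested on 23, 10 and 30 counts, the interval at 1.5 nM ran from -0.07 to 1.61, and the difference between the doses was not tested.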

How the results depend on the processing

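No paired analysis was possible because each group had 1 library. The counts of genes depended mainly on the expression minimum. Without it, 727 genes were at least 2-fold higher and 629 lower, and 2071 and 2010 passed 1.4-fold; with a mean of at least 5 CPM the counts were 42 and 16, and 319 and 185. On deposited TPM with a pseudocount of 1, 57 genes were 2-fold higher and 20 lower, and 226 were 1.4-fold lower. Among genes with whole counts alone, 36 were 2-fold lower and 245 1.4-fold lower. The cause was not tested, beyond fewer or more genes being counted under the filters. DESeq2 size factors, library size alone, prior counts of 0.5 and 5, removal of the GC trend and leaving out the nearly missing genes kept all 4 counts within 1.5 times. Of the list medians, 821 values over lists and alternatives stayed near the main one, 26 moved and 2 reversed. Of the named genes' ratios, 4121 stayed within the counting interval and 113 did not, 75 of these on TPM. The pseudocount there shrinks low genes toward 0, but genes of higher level differed as well. CREBZF, at 164 CPM untreated, was at -0.69 [-0.77, -0.60] by counts and -0.51 on TPM. Why the scales differed was not tested. Both reversals came without the expression minimum, where the LXR and lipid export list had -0.07 and the epithelial markers -0.51. No alternative moved the median of all genes by more than 0.03. Depth limits genes under about 2 CPM, where 1.4-fold lies near counting error.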

Other observations

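Genes of the extracellular matrix and its shedding, which no list above covered, were higher in part; they were chosen after their values were seen. In the KEGG annotation of the deposited table, ECM-receptor interaction had the highest median of the pathways with at least 15 measured genes, 0.44 over 31 genes, with 15 at least 1.4-fold higher and 2 lower, and it holds several of the integrins described above. Of all genes analysed 6.17% were higher and 3.29% lower by that measure, and at a mean of 2 to 5 CPM 21.9% and 11.3%. COL4A2, a basement membrane collagen chain, had 72, 91 and 121 counts and a ratio of 1.10 [0.69, 1.57], COL9A2 had 147, 140 and 226 counts and 0.98 [0.69, 1.31], and the laminin chain gene LAMB3 had 72, 78 and 113 counts and 1.00 [0.59, 1.47]. LAMC1 was at 0.17 [0.04, 0.30] and DAG1, which encodes dystroglycan, at -0.05 [-0.19, 0.08]. Metalloproteinase genes of the ADAM family included ADAM8 at 1.35 [0.74, 2.15], ADAM28 at 1.60 [0.96, 2.51] and ADAMDEC1, a gene of macrophages and dendritic cells, at 2.08 [1.34, 3.34]. The lowest pathway median was -0.31 for DNA replication, over 35 genes.

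Of 991 transcription factors annotated in the table and measured, 8 (0.807%) were at least 2-fold higher and 2 (0.202%) lower, against 1.47% and 0.574% of all genes. At 1.4-fold the counts were 39 (3.94%) higher and 47 (4.74%) lower, against 6.17% and 3.29%, and the median was -0.02. RARG, a retinoic acid receptor, was at 0.92 [0.37, 1.56]. On the lower side stood SP1, a widely expressed GC-box factor, at 168, 159.9 and 116 CPM and -0.54 [-0.62, -0.46], SOX4 at 85.3, 68.2 and 57.4 CPM and -0.57 [-0.68, -0.46], CREBZF, a bZIP protein, at 164, 149.5 and 102 CPM and -0.69 [-0.77, -0.60], and HOXB4 at 6.08, 5.15 and 3.88 CPM and -0.63 [-1.09, -0.21]. Surface receptors of dendritic cells and macrophages past 2-fold higher, also chosen after their values were seen, included the lectins CD209 at 1.13 [0.65, 1.71] and CLEC10A at 1.16 [0.48, 2.04] and the receptors GPR84 at 1.88 [1.11, 3.14] and SLAMF7 at 2.32 [1.50, 3.93], each from fewer than 50 counts in the untreated library.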
